A study of Mus musculus with 6 samples.

Results

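Described here are 10 genes at both ends of the interferon pathway, out of 15483 genes measured in mouse bone marrow cells sorted and labelled as regulatory T cells (Tregs). They were chosen by symbol, and all 10 were found. They fall into 4 interferon receptor chains (Ifnar1, Ifnar2, Ifngr1 and Ifngr2), 2 receptor kinases (Tyk2 and Jak2) and 4 genes of the ISG15 system (Isg15, Usp18, Uba7 and Herc6). The libraries came from wild-type mice, 3 of them from mice 3 months after irradiation (IR) and 3 from control mice, and the series title links the irradiated state with premature ageing. The labels do not state a radiation dose, an age or a sex for the animals. The design text gives the sort gate as CD3+ CD4+ NK1.1- Foxp3+.

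Type I interferons bind a receptor of the chains Ifnar1 and Ifnar2, which carry the kinases Tyk2 and Jak1, and interferon-gamma binds one of Ifngr1 and Ifngr2, which carry Jak1 and Jak2. The kinases activate transcription factors, among them Stat2, which with Irf9 acts at interferon-stimulated response elements (ISREs) in the promoters of response genes. Isg15 is one such gene and encodes a ubiquitin-like protein. Uba7 is the E1 enzyme that activates it, Ube2l6 the E2 enzyme that carries it, and Herc6 the mouse ligase that attaches it to target proteins. Usp18 removes ISG15 from its targets and, bound to the Ifnar2 chain, damps the type I receptor.

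The values are FPKM, in which fragments are divided by transcript length and library size, so levels can be compared between genes. Their absolute depth is unknown, and from the steps between low values the relative depth was 81.6% to 92.6% of control replicate 1 in the irradiated libraries and 98.5% and 103% in control replicates 2 and 3. Of 11 markers of T cells and Tregs, 10 were listed, and these summed to 225.9 to 228.1 FPKM in irradiated and 376.7 to 393.0 FPKM in control libraries. Foxp3, the defining factor of Tregs, stood at 12.6 ± 0.795 FPKM in irradiated and 22.6 ± 1.93 FPKM in control libraries (SD, n = 3 each). Transcripts of other marrow cells stood far above these, with 12 neutrophil markers summing to 94304 to 97133 FPKM in irradiated and 64716 to 69529 FPKM in control libraries. In bulk samples such as these, fewer cells of a type and less RNA per cell cannot be told apart. Nothing in the labels says that replicates were separate animals, so the p-values rest on the spread among these libraries, and that spread may be technical.

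Irradiated libraries were compared with control libraries to ask which parts of the pathway differ 3 months after irradiation. Isg15, Usp18 and Herc6 were lower in irradiated libraries, at 20.4%, 17.4% and 57.0% of their control means. Uba7 stood at 95.997% of its control mean and did not pass the test. None of the 6 receptors and kinases passed either, with irradiated means between 85.2% of control for Ifnar2 and 100.1% for Ifngr2. The test was limma on log2(FPKM + 1), two-sided and adjusted by Benjamini-Hochberg over the 10666 genes that averaged 1 FPKM or more, and an adjusted p under 0.05 passed. It called 10.3% of all genes lower (1100) and 6.29% higher (671), against 3 and 0 of the 10 genes. The balance over all genes moved with scaling, to 937 lower and 812 higher by median-of-ratios, to 652 lower and 1623 higher by Ptprc, B2m, Actb and Gapdh, and to 189 lower (1.77%) and 9112 higher (85.3%) by T cell genes. On this last scale the 6 receptors and kinases and Uba7 were called higher, Herc6 lost its call, and Isg15 and Usp18 were called lower. Log2 changes run from control to irradiated libraries, so that a negative one means lower after irradiation, and the added 1 makes those of low genes too small.

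**Figure D1:**
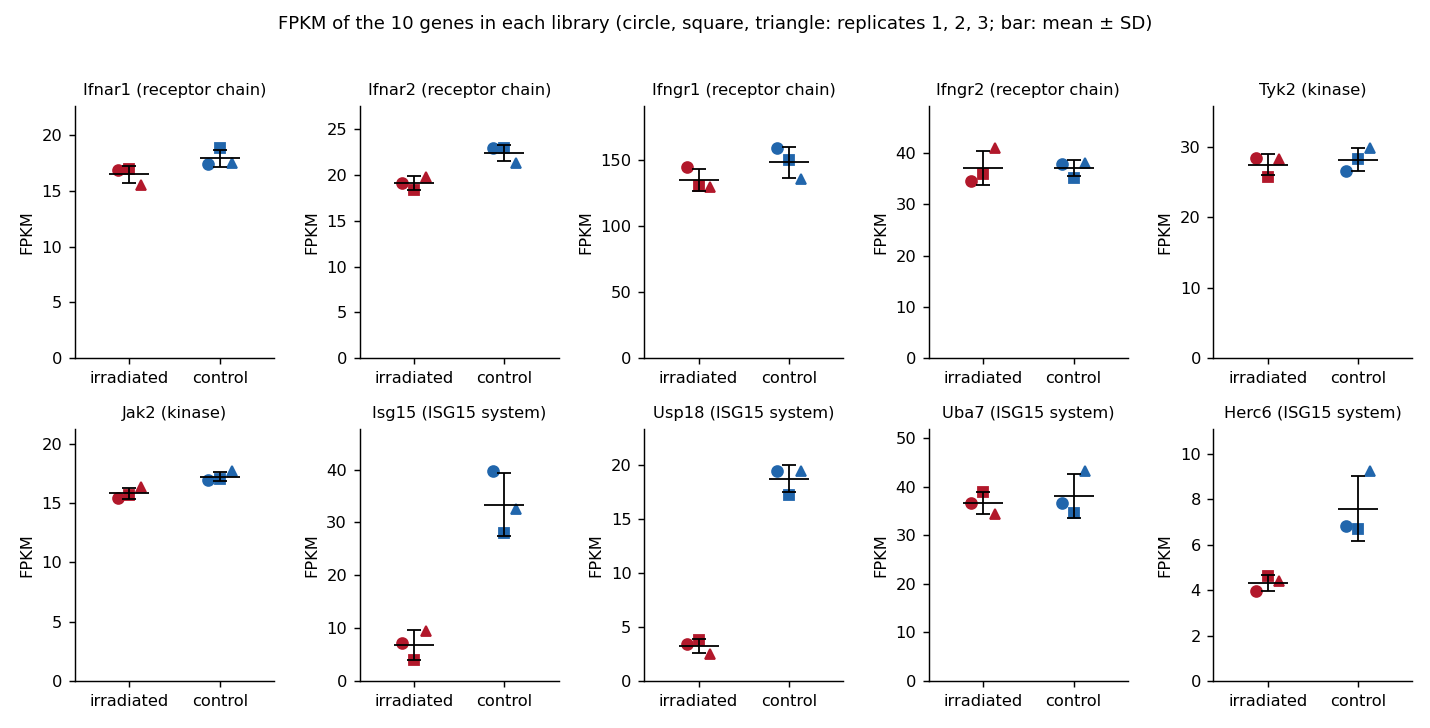
FPKM of each of the 10 genes, 1 panel a gene with its own axis from 0, for 3 irradiated libraries (left) and 3 control libraries (right), with the mean and SD as black bars. The groups are far apart for Isg15 and Usp18 and apart for Herc6, while the receptors, the kinases and Uba7 lie at similar heights in both groups.

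The transcripts of the type I interferon receptor chains differed little between the groups on the deposited values, and neither passed the test. Ifnar1 (GRCm38, chromosome 16, 91485238 to 91507441, plus strand, GENCODE M21) stood at 16.9, 16.99 and 15.6 FPKM in irradiated libraries and at 17.4, 18.8 and 17.5 FPKM in control libraries. Every irradiated value of Ifnar1 was below every control value, by a small margin. On the deposited values its log2 change was -0.12 ± 0.08 (SE, 95% interval -0.30 to 0.07) and did not pass by limma (adjusted p = 0.389). Ifnar2 (chromosome 16, 91372783 to 91405589, plus strand), the chain that also binds Usp18, stood at 19.1, 18.3 and 19.9 FPKM in irradiated libraries and at 22.95, 22.95 and 21.4 FPKM in control libraries. The groups did not overlap here either, and Ifnar2 had the lowest log2 change of the 6 receptors and kinases, -0.22 ± 0.08 (95% interval -0.39 to -0.05), without passing the test over all genes (limma adjusted p = 0.0769). Without control replicate 3 that adjusted p was the lowest of the fits that left out a library, at 0.0753.

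Of the interferon-gamma receptor chains, Ifngr1 had the highest level of the 10 genes. Ifngr1, the ligand-binding chain (chromosome 10, 19591949 to 19610229, plus strand), stood at 144.7, 130.6 and 129.99 FPKM in irradiated libraries and at 159.0, 150.4 and 135.7 FPKM in control libraries. These ranges overlapped, and the log2 change of -0.13 ± 0.07 (95% interval -0.28 to 0.02) did not pass (limma adjusted p = 0.217). Leaving out control replicate 3 gave a log2 change of -0.20 (limma adjusted p = 0.0532). Ifngr2, the signalling chain (chromosome 16, 91547072 to 91565623, plus strand), stood at 34.5, 35.8 and 40.95 FPKM in irradiated libraries and at 37.97, 35.2 and 38.0 FPKM in control libraries. The irradiated values of Ifngr2 spanned the control values. The 95% interval of its log2 change was -0.17 to 0.17 around -0.0014 (limma adjusted p = 0.993).

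The kinase transcripts differed little on the deposited values too, and neither passed the test. Tyk2, the kinase of Ifnar1 (chromosome 9, 21104068 to 21131243, minus strand), stood at 28.5, 25.8 and 28.2 FPKM in irradiated libraries and at 26.5, 28.2 and 29.8 FPKM in control libraries, with overlapping ranges. Its log2 change was -0.03 ± 0.08 (95% interval -0.20 to 0.13, limma adjusted p = 0.813). Jak2, the kinase of Ifngr2 (chromosome 19, 29251828 to 29313080, plus strand), stood at 15.4, 15.7 and 16.3 FPKM in irradiated libraries and at 16.98, 17.02 and 17.7 FPKM in control libraries. All irradiated values of Jak2 were below all control values, and its log2 change of -0.12 ± 0.08 (95% interval -0.29 to 0.06) did not pass (limma adjusted p = 0.367). With Ifnar1 and Ifnar2, Jak2 was thus 1 of 3 receptors and kinases of 6 whose irradiated values all lay below the control values, where 20.1% of all tested genes did so and 13.5% lay above. The intervals of the 6 receptor and kinase genes reach no further than -0.39 and 0.17 on the log2 scale.

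The gene of the modifier itself was among the most lowered in the table. Isg15 (chromosome 4, 156199424 to 156200818, minus strand) stood at 7.21, 3.87 and 9.35 FPKM in irradiated libraries and at 39.7, 27.9 and 32.5 FPKM in control libraries. The highest irradiated value was well below the lowest control value. Its log2 change was -2.19 ± 0.23 (95% interval -2.69 to -1.69, limma adjusted p = 5.78e-05), which ranked 6 from the lowest among the 10666 genes tested. Irradiated libraries differed among themselves more for Isg15 than for any other of the 10 genes, with a coefficient of variation of 40.6%, against 17.8% for Isg15 in control libraries. Isg15 is also the shortest of the 10, with 756 exonic bases, so that fewer fragments stand behind each FPKM.

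Usp18, the ISG15 protease and brake on Ifnar2 (chromosome 6, 121245906 to 121270917, plus strand), stood at 3.43, 3.80 and 2.52 FPKM in irradiated libraries and at 19.4, 17.2 and 19.4 FPKM in control libraries. The groups were far apart, and the log2 change of -2.22 ± 0.13 (95% interval -2.51 to -1.93, limma adjusted p = 8.4e-07) ranked 5 from the lowest. Among the irradiated libraries replicate 2 had the lowest Isg15 and the highest Usp18, and replicate 3 the highest Isg15 and the lowest Usp18.

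Of the 2 conjugating enzymes, Herc6 passed the test and Uba7 did not. Herc6, the ligase (chromosome 6, 57581000 to 57664632, plus strand), stood at 3.95, 4.61 and 4.42 FPKM in irradiated libraries and at 6.85, 6.69 and 9.25 FPKM in control libraries, so that the groups did not overlap. Control replicate 3 was the highest of the 6. Herc6 had a log2 change of -0.68 ± 0.14 (95% interval -0.99 to -0.37, limma adjusted p = 0.00651), and the change was -0.55 without control replicate 3 (adjusted p = 0.0232). Scaling to T cell genes ended this call (limma adjusted p = 0.790). Uba7, the activating enzyme (chromosome 9, 107975505 to 107984060, plus strand), stood at 36.6, 38.9 and 34.3 FPKM in irradiated libraries and at 36.6, 34.6 and 43.2 FPKM in control libraries. Its irradiated values lay within the span of its control values but for replicate 3, and the log2 change of -0.05 ± 0.09 (95% interval -0.25 to 0.14) did not pass (limma adjusted p = 0.741). By GENCODE M21, exons of Ifnar2, Uba7 and Herc6 overlap those of another gene model on the same strand (Gm21970, Gm20661 and Gm45193), and those of Tyk2 and Usp18 an antisense one (1700084C06Rik and Gm44148), so their values are uncertain to the extent that reads were shared.

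Levels were ordered within each group. In irradiated libraries Ifngr1 was highest, followed by Ifngr2, Uba7, Tyk2, Ifnar2, Ifnar1, Jak2, Isg15, Herc6 and Usp18, and the ranges of neighbours overlapped for Ifngr2 and Uba7, for Ifnar1 and Jak2, and for Isg15 and Herc6. In control libraries the order was Ifngr1, Uba7, Ifngr2, Isg15, Tyk2, Ifnar2, Usp18, Ifnar1, Jak2 and Herc6, with overlaps between Uba7 and Ifngr2, Ifngr2 and Isg15, Isg15 and Tyk2, Usp18 and Ifnar1, and Ifnar1 and Jak2. Isg15 and Usp18 thus stood among the receptors and kinases in control libraries and below all of them in irradiated libraries.

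The receptors and kinases were set against the ISG15 system by the mean log2(FPKM + 1) of each set in each library. The ISG15 system averaged 3.15 ± 0.06 in irradiated and 4.44 ± 0.14 in control libraries (log2 level, SD, n = 3 each), and the receptors and kinases 4.95 ± 0.03 and 5.05 ± 0.01. The first minus the second was -1.78, -1.83 and -1.78 in irradiated libraries and -0.58, -0.77 and -0.48 in control libraries. The mean of this difference was 1.18 lower in irradiated libraries (-1.80 ± 0.03, against -0.61 ± 0.15), and no test is given because the genes were chosen with results known. Within the ISG15 system, Isg15 and Usp18 had the largest changes and Uba7 the smallest.

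Ratios between genes of the same library do not change when a library is scaled by a single factor, as in 3 of the 4 scalings run, all but quantile normalization. The ratio of Isg15 to Uba7, the modifier to its activating enzyme, was 0.197, 0.0996 and 0.272 in irradiated libraries and 1.08, 0.807 and 0.752 in control libraries. The ratio of Herc6 to Uba7 was 0.108, 0.119 and 0.129 in irradiated libraries and 0.187, 0.194 and 0.214 in control libraries. For Usp18 to Ifnar2 the values were 0.179, 0.207 and 0.127 in irradiated libraries and 0.845, 0.751 and 0.909 in control libraries. In each of these 3 ratios the groups did not overlap, and the two-sided exact permutation p was 0.1, the smallest that 3 against 3 allows (0.233 with Benjamini-Hochberg adjustment over the 7 ratios computed). The ratios were chosen after the data were seen, and each of these 3 sets a gene called lower over one without a call. Their separation follows from the changes given above and adds no further support. Usp18 to Isg15 averaged 0.575 ± 0.366 in irradiated and 0.568 ± 0.070 in control libraries (SD, n = 3 each), with an exact permutation p of 1. The chains of each receptor had overlapping ratios in the groups, Ifnar1 to Ifnar2 at 0.864 ± 0.073 in irradiated and 0.800 ± 0.035 in control libraries (exact permutation p = 0.3), and Ifngr1 to Ifngr2 at 3.67 ± 0.511 and 4.01 ± 0.383 (exact permutation p = 0.5). Tyk2 to Jak2 was 1.74 ± 0.1003 in irradiated and 1.63 ± 0.065 in control libraries (exact permutation p = 0.3).

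**Figure D2:**
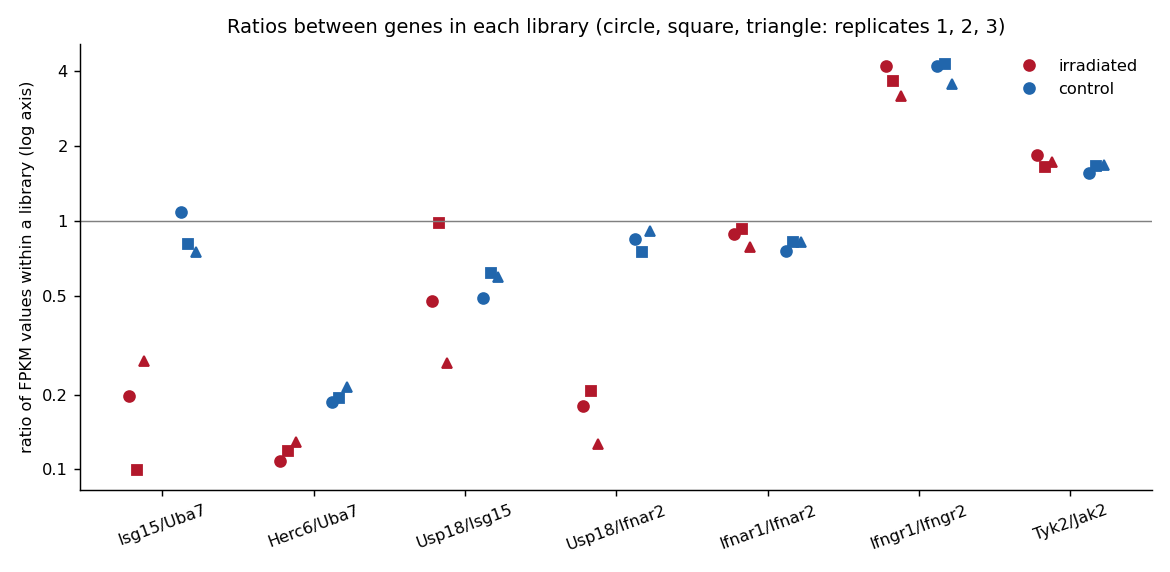
Ratio of the FPKM values of 2 genes within a library (log axis) for the 7 ratios computed, with 3 irradiated libraries left of 3 control libraries. Isg15/Uba7, Herc6/Uba7 and Usp18/Ifnar2 separate the groups, while Usp18/Isg15 spreads from 0.269 to 0.981 among irradiated libraries and spans the control values.

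The sign of the small changes depended on how libraries were scaled. Scaled to Ptprc, B2m, Actb and Gapdh, the median log2 change of all genes was 0.10, against -0.02 on the deposited values. Isg15 was at -2.06, Usp18 at -2.10 and Herc6 at -0.56 on that scale, and each was called. Scaled to the T cell genes Cd3e, Cd3d, Cd3g, Cd2 and Lat, which were lower in irradiated libraries, the median log2 change of all genes was 0.65. On that scale all 6 receptors and kinases were called higher, with log2 changes between 0.50 for Ifnar2 and 0.73 for Ifngr2, and Uba7 was called higher at 0.68 ± 0.10 (limma adjusted p = 4.25e-05). Relative to the median of all genes these 7 changes ran from -0.15 to 0.08. Isg15 was called lower on that scale, at -1.50 ± 0.23 (adjusted p = 7.31e-05), and so was Usp18 at -1.57 ± 0.14 (adjusted p = 1.2e-06). Herc6 lost its call there, at -0.04 ± 0.15 (limma adjusted p = 0.790), a change of -0.69 relative to the median of all genes.

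**Figure D3:**
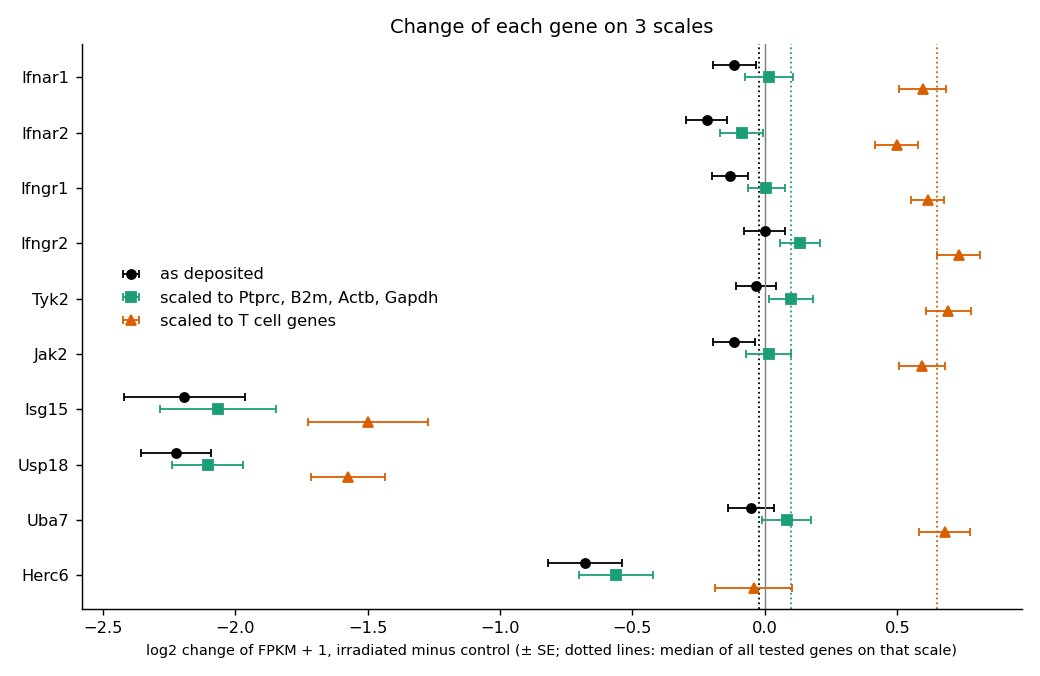
Log2 change, irradiated minus control, with its SE for each of the 10 genes on the deposited values (circles), scaled to Ptprc, B2m, Actb and Gapdh (squares) and scaled to T cell genes (triangles), with the median of all tested genes on each scale as a dotted line. Receptors, kinases and Uba7 follow the dotted lines, Isg15 and Usp18 lie between -2.22 and -1.50 on the 3 scales, and Herc6 is near 0 on the T cell scale.

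Markers of other cells moved in the same libraries. On the deposited values, of 10 tested markers of plasmacytoid dendritic cells, which are strong producers of type I interferon, 8 were lower in irradiated libraries and 0 higher (7 lower and 1 higher on the T cell scale), and their summed level was 59.95 to 72.1 FPKM in irradiated and 189.9 to 198.3 FPKM in control libraries. That list holds Bst2, which interferon also induces, and its Ly6d and Spib are B lineage genes too. Bst2 alone averaged 35.8 FPKM in irradiated and 94.0 FPKM in control libraries, a large part of each sum. It is also counted among the type I interferon response genes below. Siglech, the defining gene, stood at 3.11 ± 0.546 FPKM in irradiated and 14.8 ± 0.733 FPKM in control libraries (SD, n = 3 each). Of 12 monocyte and macrophage markers 11 were lower (7 lower and 2 higher on the T cell scale), with sums of 5248 to 5293 FPKM in irradiated and 6553 to 7004 FPKM in control libraries, and all 7 tested B cell markers were lower (5 of 7 on the T cell scale). On the deposited values 5 of 6 NK cell markers, 5 of 6 eosinophil markers and 5 of 7 erythroid markers were lower too. The T cell scale left 1, 1 and 0 of these lower, and 2 eosinophil markers higher. Of all tested genes 10.3% were called lower on the deposited values. Of 12 neutrophil markers 9 were higher (12 on the T cell scale, where 85.3% of all tested genes were called higher). No other marker list held a gene called higher on the deposited values. Of 10 tested T cell markers 9 were lower, a list that holds the 5 genes of the T cell scale. No marker found in the table was at 0 in all 6 libraries. The part of these cells in the lower Isg15, Usp18 and Herc6 was not tested.

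Promoter sequences from RefSeq (GRCm38.p6) are shown for 3 of the 4 ISG15 system genes, since Isg15 and Herc6 were called lower and Uba7 was not. Usp18 had no promoter window in the source used, so it was not searched. Each window runs 5′ to 3′ along the gene, from 250 bases before the RefSeq start to 50 bases after it, at chr4:156200769-156201068 on the minus strand for Isg15, chr6:57580742-57581041 on the plus strand for Herc6 and chr9:107975317-107975616 on the plus strand for Uba7. Capitals mark the ISRE core, searched on both strands as GAAA followed, after any 2 bases, by GAAA.

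Isg15: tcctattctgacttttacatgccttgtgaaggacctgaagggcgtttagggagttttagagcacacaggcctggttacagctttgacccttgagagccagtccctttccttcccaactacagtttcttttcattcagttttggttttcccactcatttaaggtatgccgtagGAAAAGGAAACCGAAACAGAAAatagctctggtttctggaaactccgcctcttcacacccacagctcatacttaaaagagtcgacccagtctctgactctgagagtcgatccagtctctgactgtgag

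Herc6: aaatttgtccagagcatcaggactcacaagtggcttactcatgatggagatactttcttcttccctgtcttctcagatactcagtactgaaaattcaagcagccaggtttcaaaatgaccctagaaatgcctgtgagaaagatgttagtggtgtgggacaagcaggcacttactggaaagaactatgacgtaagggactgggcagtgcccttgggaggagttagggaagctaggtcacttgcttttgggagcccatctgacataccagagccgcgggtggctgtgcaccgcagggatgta

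Uba7: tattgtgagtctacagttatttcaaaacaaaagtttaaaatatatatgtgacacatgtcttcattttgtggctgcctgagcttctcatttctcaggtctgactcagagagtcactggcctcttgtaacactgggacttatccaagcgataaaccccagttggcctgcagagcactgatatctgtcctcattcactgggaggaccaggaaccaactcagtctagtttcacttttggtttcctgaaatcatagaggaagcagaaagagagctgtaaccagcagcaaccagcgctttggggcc

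The Isg15 window held 3 overlapping ISRE cores on the gene's own strand, the first base of each at 78, 72 and 66 bases before the start. They read GAAAAGGAAA, GAAACCGAAA and GAAACAGAAA, and neighbours share a GAAA. No exact match to this core was found in the windows of Herc6 and Uba7 or in those of the 6 receptors and kinases. An ISRE core was present in 3.44% of all 32851 promoter windows and in 55.2% of the 29 windows of type I interferon response genes outside the set. The longer form, the core followed by CT, was in no window of the set and in 0.271% of all windows. The core of the interferon-gamma activated site (GAS), TTC and GAA with any 3 bases between, which as a pattern reads the same on both strands, was found once in Ifnar1 (TTCACGGAA, from 5 bases before the start) and once in Ifnar2 (TTCCTGGAA, from 214 bases before), and in 8.30% of all windows. In the 250 bases before the start alone, the Ifnar1 match, which crosses the start, is lost, and 1 of the 9 windows of the set and 7.02% of all windows hold a GAS core. The ISRE cores of Isg15 lie within those 250 bases. A match of letters describes the window only.

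The rest of the interferon signal chain was mixed. Of its 24 tested genes 2 were higher and 4 lower on the deposited values. Their median log2 change was -0.11, against -0.02 over all tested genes. The T cell scale had 20 higher and 0 lower, where 85.3% of all tested genes were called higher. Stat2 averaged 16.3 ± 1.10 FPKM in irradiated and 24.9 ± 1.80 FPKM in control libraries (SD, n = 3 each), a log2 change of -0.58 ± 0.09 (limma adjusted p = 0.000818). Irf9 averaged 26.3 ± 0.862 FPKM in irradiated and 44.6 ± 2.69 FPKM in control libraries, a log2 change of -0.74 ± 0.07 (limma adjusted p = 3.19e-05). Both lost their calls on the T cell scale, with log2 changes of 0.13 for Stat2 and -0.0058 for Irf9, below the median of 0.65 there. Jak1, the kinase shared by both receptors, stood at 69.2 ± 2.09 FPKM in irradiated and 74.7 ± 1.59 FPKM in control libraries and did not pass (log2 change -0.11 ± 0.05, limma adjusted p = 0.207).

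Of the feedback inhibitors, Socs1 did not pass the test and Socs3 did. Socs1 stood at 8.41, 7.44 and 13.5 FPKM in irradiated libraries and at 11.98, 10.6 and 12.98 FPKM in control libraries, which overlap (log2 change -0.29 ± 0.18, limma adjusted p = 0.299). Without irradiated replicate 3 it was called lower, at -0.53 (adjusted p = 0.0198). Socs3, named after its value was seen, was higher, at 18.98 ± 1.44 FPKM in irradiated and 12.4 ± 1.64 FPKM in control libraries (log2 change 0.58 ± 0.11, limma adjusted p = 0.00362). Neutrophil markers rose in the same libraries, and their part in this was not tested.

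Among 6 tested genes of the other JAK kinases and the receptor family of the interferon chains, 2 were higher and 2 lower on the deposited values. Their median log2 change was 0.10. The T cell scale had 5 higher and 0 lower, where 85.3% of all tested genes were called higher. Il10rb, which pairs with the interferon-lambda chain Ifnlr1 and with the interleukin-10 chain Il10ra, changed by -0.33 ± 0.07 (limma adjusted p = 0.00852), a call lost when libraries were scaled to Ptprc, B2m, Actb and Gapdh (-0.20, adjusted p = 0.0994), and Il10ra by -0.66 ± 0.08 (adjusted p = 0.000227). On the T cell scale Il10rb was called higher, at 0.40 (limma adjusted p = 0.000495), and Il10ra lost its call, at 0.064 (adjusted p = 0.509). Ifnlr1 itself stood at 10.99 ± 0.588 FPKM in irradiated and 8.06 ± 1.12 FPKM in control libraries, a log2 change of 0.41 ± 0.11 (limma adjusted p = 0.0319). Jak3, the kinase of the common gamma chain, named after its value was seen, changed by 0.31 ± 0.09 (limma adjusted p = 0.0345). The call of Ifnlr1 was lost without irradiated replicate 2 or 3 or control replicate 1 or 2, at adjusted p up to 0.126, and that of Jak3 without irradiated replicate 1 or 2 or control replicate 1 or 2, at adjusted p up to 0.134.

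The genes of other ISG15 partners outside the set were lower in part on the deposited values. Of 7 tested, 3 were lower and 0 higher, where 10.3% of all tested genes were called lower and 6.29% higher. Their median log2 change was -0.08. On the T cell scale 6 were higher and 0 lower, near the 85.3% of all tested genes called higher there. Ube2l6 (0.21) and Itgal (0.51) were among the 6, below the median of all tested genes on that scale (0.65). Trim25 was at 0.079 there. The E2 enzyme gene Ube2l6 stood at 21.7 ± 0.820 FPKM in irradiated and 31.5 ± 3.05 FPKM in control libraries (SD, n = 3 each), a log2 change of -0.52 ± 0.08 (limma adjusted p = 0.00145). Trim25, a ubiquitin ligase that ISG15 modifies, changed by -0.64 ± 0.09 (limma adjusted p = 0.000408). Itgal, the integrin chain of LFA-1, which binds free ISG15 outside cells, changed by -0.23 ± 0.05 (limma adjusted p = 0.00772), a call lost when libraries were scaled to Ptprc, B2m, Actb and Gapdh (adjusted p = 0.255).

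Relatives of Uba7, Herc6 and Isg15 outside the ISG15 system had list medians near that of all genes on the deposited values. On the T cell scale 8 of 9 other E1 enzymes, 4 of 4 other HERC ligases and 13 of 13 other modifiers were called higher, with medians of 0.61, 0.72 and 0.73. These lie near the values over all tested genes on that scale, 85.3% called higher and a median of 0.65. Of 9 other E1 enzymes 1 was higher and 0 lower, with a median of -0.10, and the one was Atg7 (0.31 ± 0.08, limma adjusted p = 0.0289), the E1 enzyme of autophagy, whose call was lost without irradiated replicate 1 or 3 or control replicate 2 or 3, at adjusted p up to 0.1. Uba1, the main E1 enzyme of ubiquitin, had a log2 change of -0.13 ± 0.05 (limma adjusted p = 0.108) and Sae1, of the SUMO pathway, one of -0.17 ± 0.07 (adjusted p = 0.116), and neither passed. Sae1 passed without control replicate 3 (adjusted p = 0.0327). Of the 4 other HERC ligases 0 passed, with log2 changes from -0.06 for Herc3 to 0.12 for Herc4, and Herc1 at 0.07. Of 13 other ubiquitin-like modifiers 1 was higher, Atg12 (0.36 ± 0.08, limma adjusted p = 0.0134), and 1 lower, Fau (-0.21 ± 0.05, adjusted p = 0.0236), on the deposited values. The call of Atg12 was lost without irradiated replicate 2 or control replicate 1 or 2, at adjusted p up to 0.0528, and that of Fau without irradiated replicate 1 or 3 or control replicate 1 or 2, at adjusted p up to 0.0937. Fau also lost its call with no filter (adjusted p = 0.0919), with no trend (0.150), by median-of-ratios (0.088) and by Ptprc, B2m, Actb and Gapdh (log2 change -0.069, adjusted p = 0.370), and was called higher on the T cell scale at 0.54 (limma adjusted p = 4.02e-07).

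Response genes outside the set give the scale of the changes. Of 33 tested type I interferon response genes 33 were lower on the deposited values, where 10.3% of all tested genes were called lower. On the T cell scale 22 were lower and 0 higher, where 1.77% of all tested genes were called lower and 85.3% higher. The deposited-scale median log2 change was -1.23, and the range from -2.46 to -0.48 held Isg15, Usp18 and Herc6 but not Uba7. Ifi27l2a (-2.19), Irf7 (-1.88) and Slfn5 (-1.66) had the lowest p among them. Of 17 tested interferon-gamma response genes 11 were lower and 0 higher on the deposited values, with a median of -0.57. Among the lower were the immunity GTPase genes Irgm1 (-1.01 ± 0.10) and Igtp (-0.92 ± 0.09) and the peptide transporter gene Tap1 (-0.57 ± 0.06). On the T cell scale 2 of 16 tested were lower and 6 higher, a smaller share called higher than over all tested genes. Their median there was 0.15, against 0.65 over all tested genes. Tap1 was among the higher at 0.17, and Igtp had no call at -0.20 (limma adjusted p = 0.0605). Of the 9 ligand genes searched, 1 was listed, and that one, Ifng, stood at 1.01 ± 0.521 FPKM in irradiated and 2.90 ± 0.595 FPKM in control libraries (log2 change -0.97 ± 0.20, limma adjusted p = 0.00681).

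**Figure D4:**
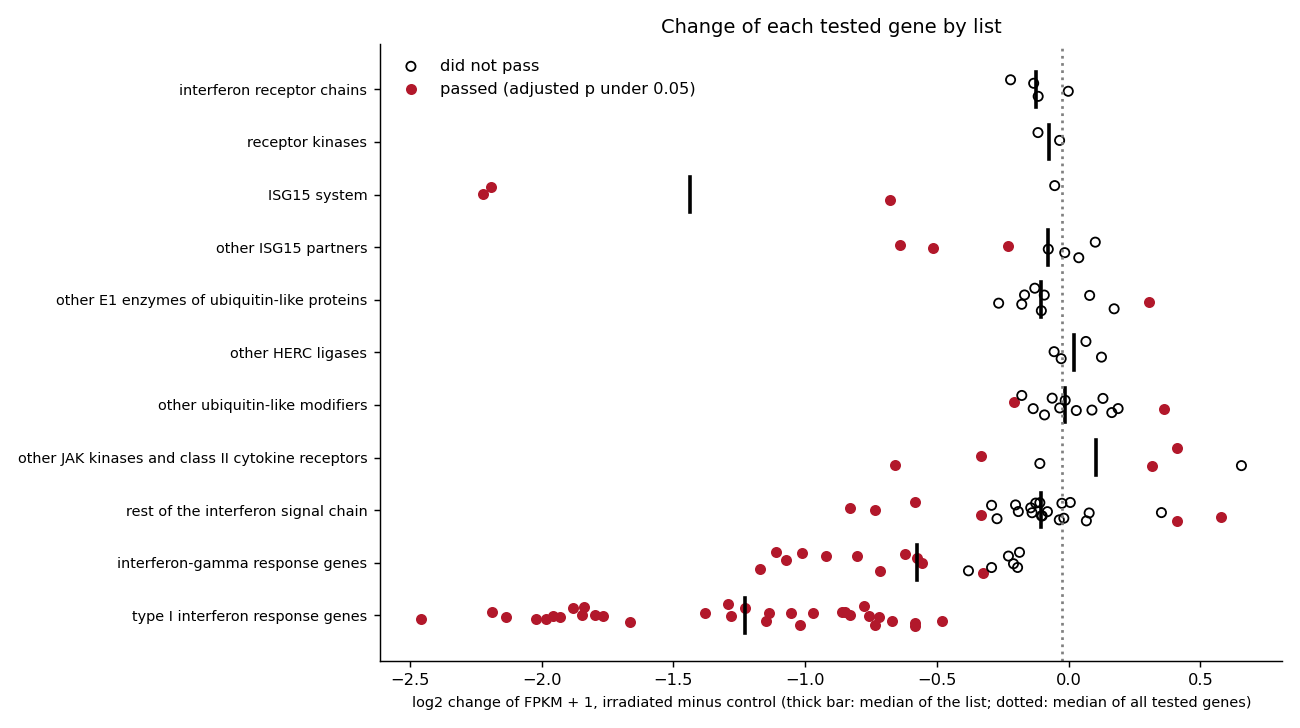
Log2 change, irradiated minus control, of each tested gene by list, filled where it passed the test, with the median of each list as a thick bar and the median of all tested genes as a dotted line. The receptor and kinase points lie between -0.22 and 0, 3 of the 4 ISG15 system points lie with the interferon response genes, and the other E1, HERC and modifier genes lie around the dotted line.

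Genes with the most similar pattern were sought among 7789 genes averaging 5 FPKM or more, by Pearson's r of log2(FPKM + 1) over the 6 libraries, a measure that takes in the difference between the groups. For Isg15 they were Tle4 (0.998), Metrnl (0.995) and Uhrf2 (0.995). Usp18 was followed by Ifi206 (0.9996), Ctsa (0.999) and Spib (0.998). Herc6 had Tmem33, Adgre5 and Mef2d (0.995 each), and Uba7 had Atp13a1 (0.990), Atp13a3 (0.987) and Ift80 (0.987). By deviations from the group means, over the same 6 libraries, the closest to Isg15 were Polr3c (0.993), Dpm3 (0.989) and Rbm17 (0.989), and those to Usp18 were Prepl (0.999), Dcaf12 (0.999) and Cd47 (0.996). For Herc6 they were Ddx3y (0.999), Gabpb2 (0.998) and Map4k4 (0.998), and for Uba7 Arhgap27 (0.997), Rnf6 (0.995) and Arhgap30 (0.994). The 2 measures thus named different genes for each of the 4. The highest r of 7789 genes over 6 libraries can be this high without any link, so the names describe pattern only. Pearson's r also ignores the size of a change, so that Tle4 (log2 change -0.49) and Spib (-2.26) are both named.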

How the data were processed

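Per the labels' protocols, RNA of the sorted cells was isolated on micro columns and went into strand-specific mRNA libraries. The authors deposited 1 FPKM value per gene and library, made with fastp, HISAT2 and StringTie on the builds GRCm38 and mm10, per the submitters' processing notes, with versions, settings and annotation not given in the sources used here. FPKM was read from the values: FPKM times exonic length summed to between 1465014 and 1476166 in each library. The 3 irradiated and 3 control libraries were grouped by the treatment label.

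From these values limma 3.58.1 in R 4.3.3 (eBayes with a trend) was fitted to log2(FPKM + 1) over all genes averaging 1 FPKM or more. The fit was tested on simulated data with known changes. Ratios were compared with exact permutation tests in scipy 1.17.1. Relative depth came from genes below 0.1 FPKM, as the ratio that made most values ratios of whole numbers up to 6 within 0.001. Coordinates are from GENCODE M21 and promoters from a RefSeq table, in which 9 of the 10 genes were matched.

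All 10 genes are named, with up to 3 of each other list by lowest p, 9 genes always named, and 3 closest in pattern for each ISG15 system gene. The genes and lists were chosen with earlier results of these data known. Alternatives were a pseudocount of 0.1, other filters, 4 scalings, a replicate block, array weights, no trend, fits without each library and a shorter promoter window. The counts of calls on the T cell scale, the list counts by scaling, the ratios, and the naming of Socs3 and Jak3 were chosen after seeing the data. Results for some genes that the naming rule covers are not reported here.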

Additional observations from a re-analysis of the deposited data

How the results depend on the processing

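The calls of Isg15 and Usp18 held in every fit run. Those of Herc6, and the missing calls of the 6 receptors and kinases, held in every fit but the scaling to T cell genes. This includes the fits without 1 library, where log2 changes ran from -2.43 to -1.88 for Isg15, from -2.32 to -2.09 for Usp18 and from -0.75 to -0.55 for Herc6. Counts over all genes without 1 library ran from 414 to 684 higher and from 709 to 968 lower, the lowest without control replicate 2. Scaled to Ptprc, B2m, Actb and Gapdh, 1623 genes were higher and 652 lower, and the sign turned for Ifnar1 (0.015), Ifngr1 (0.0048), Ifngr2 (0.13), Tyk2 (0.099), Jak2 (0.014), Uba7 (0.082), Herc3 (0.052), Jak1 (0.027) and Uba1 (0.0086), without a call. Scaled to T cell genes, 9112 were higher and 189 lower, 6 receptors and kinases and 1 ISG15 system gene were called higher, and the sign turned for Ifnar1 (0.59), Ifnar2 (0.50), Ifngr1 (0.61), Ifngr2 (0.73), Tyk2 (0.69), Jak2 (0.59) and Uba7 (0.68). It also turned there for other named genes, among them Jak1 (0.63), Uba1 (0.62), Sae1 (0.57), Fau (0.54), Herc3 (0.53), Itgal (0.51), Il10rb (0.40), Ube2l6 (0.21) and Tap1 (0.17), each called higher, and Socs1 (0.39), Stat2 (0.13), Trim25 (0.079) and Il10ra (0.064), not called. With no filter Ifnlr1 (adjusted p = 0.0721) and Jak3 (0.0856) lost their calls, and with no trend Jak3 (0.0924), Itgal (0.0674) and Atg7 (0.0585) did. Ifngr2 also turned to 0.032 with median-of-ratios scaling, 0.021 with quantile normalization and 0.0093 with array weights, and Herc3 to 0.0058 with quantile normalization. Without 1 library Ifngr2 ran from -0.073 to 0.048, Tyk2 from -0.076 to 0.0095, Uba7 from -0.12 to 0.038 and Herc1 from -0.0028 to 0.12. The ISG15 system minus the receptors and kinases was -1.32 with a pseudocount of 0.1, which lowers the floor under Isg15 and Usp18, and ran from -1.26 to -1.12 without 1 library.

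Same-numbered libraries of the groups did not deviate together (r of 0.011, -0.042 and -0.023 for numbers 1, 2 and 3). With 3 libraries a group this cannot exclude a shared batch. The main fit used the numbers only to name samples. With a replicate block 558 genes were higher and 948 lower, and of the named genes it changed the call of Jak3 (adjusted p = 0.0624). Absolute depth is unknown, which limits the lowest values, those of Usp18, Herc6 and Isg15 in irradiated libraries.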
